A study of Mus musculus with 9 samples.

Results

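The 10 genes described here encode tetraspanins, and they were taken by symbol from a table of 49585 genes: Cd9, Cd37, Cd53, Cd63, Cd81, Cd82, Cd151, Tspan7, Tspan13 and Tspan32. All 10 had a row in the table, and all 10 passed the filter on low counts that left 11619 genes for testing. They were read in 9 bulk RNA-seq libraries, 3 replicates of each of 3 populations sorted from expanded haematopoietic stem cells (HSCs) of wild-type C57BL/6 mice. Cultures were begun with CD34-CD150+KSL bone marrow cells, where KSL means lineage-negative cells carrying Kit and Sca-1. The F12 medium held 0.1% polyvinyl alcohol with 100 ng/ml of thrombopoietin and 10 ng/ml of SCF, the ligand of Kit, and culture lasted 10 days by the design text but a week by the growth protocol. All populations were KSL cells of such cultures, so none is an uncultured control. The first, called CD201+CD48- here, was sorted as CD201+CD150+CD48-KSL, and the second, CD201+CD48+, as CD201+CD150+CD48+KSL. The third, CD201-, is labelled CD201-KSL, with CD150+CD48+ added to the gate only in its titles. CD201 is the endothelial protein C receptor, used with CD150 and without CD48 to enrich HSCs.

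Tetraspanins are small proteins that cross the membrane several times and gather integrins, proteases, receptors and one another into membrane microdomains, by which they shape adhesion, migration, receptor signalling and the sorting of cargo into exosomes. In the blood system CD9 and CD151 are found on platelets and their precursors, CD37 and CD53 are largely confined to leukocytes, and CD63 sits in late endosomes and secretory granules. CD81 and CD82 have been linked in mice to the return of HSCs to quiescence and to its maintenance.

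Total counts per library ranged from 3810123 to 7072885. The transcript of CD201, Procr, averaged 63.2 ± 3.74 CPM (counts scaled to the same library total by TMM) in CD201+CD48-, 26.5 ± 2.16 in CD201+CD48+ and 3.56 ± 1.07 in CD201- libraries, and Cd48 averaged 5.86 ± 0.671, 83.3 ± 7.22 and 124.7 ± 4.25 CPM (SD, n = 3 each), each in the order of its sort. The other antigens of the gates were read as transcripts too, with CD150 in the CD201- gate only by its titles. Kit averaged 509.2 ± 26.8, 467.7 ± 14.5 and 350.7 ± 20.1 CPM and was called above its CD201- level in both CD201+ populations. Ly6a, the gene of Sca-1, averaged 21.7 ± 1.67, 16.0 ± 2.36 and 9.90 ± 4.02 CPM and was called against CD201- in both too, but the CD201+CD48+ call (log2 fold change 0.69, edgeR adjusted p = 0.0351) was lost in 7 of 17 alternatives, among them without CD201- replicate 3. Slamf1, the gene of CD150, averaged 57.5 ± 1.05, 53.1 ± 5.82 and 47.1 ± 4.97 CPM, and its call in CD201+CD48- against CD201- cells (0.29, adjusted p = 0.0355) was lost in 8 of 17. CD201- replicate 3 stood apart, with 584 genes differing over 2-fold from the mean of its fellow replicates, against 53 to 233 genes in the other libraries. Among the tetraspanins it deviated most for Cd53 (-0.62 on the log2 CPM scale) and Cd37 (-0.59), and results for the members are given without it where it matters. Whether the replicates came from different animals or cultures is not in the labels, so p-values measure the spread between these libraries, which may be technical.

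Tspan7, Cd82 and Cd53 showed the widest differences, all 3 with lower levels in CD201- cells. Tspan7 and Cd82 stepped down from CD201+CD48- through CD201+CD48+ to CD201- cells, whereas Cd53 stood high in both CD201+ populations. Cd81 was a smaller version of the step. Cd9 and Cd63 were lowest in CD201+CD48+ cells, Cd37 was lowest in CD201+CD48- cells, and Tspan32 did not pass in any comparison. Of the 10 members, 6 were higher (24.2% of all tested genes) and 1 lower (23.9%) when CD201+CD48- cells were set against CD201- cells, where 48.1% of all tested genes were called at an adjusted p of 0.05 (edgeR quasi-likelihood test, Benjamini-Hochberg over all genes). In CD201+CD48+ against CD201- cells 5 were higher (14.8% of all genes) and 2 lower (14.3%), with 29.1% of all genes called. Between the CD201+ populations 5 were higher in CD201+CD48- cells (9.05% of all genes) and 1 lower (6.31%), with 15.4% called. The first 2 comparisons share the CD201- libraries. Scaling by library size alone changed the split of all genes from 2807 higher and 2778 lower to 3974 and 1685 in the first comparison, and from 1723 and 1661 to 2701 and 851 in the second, and left 0 members lower in each. The median log2 fold change of the members was 0.32, 0.21 and 0.25 in that order, against 0.00318, -0.0022 and -0.00544 for all tested genes. With 10 members, these counts describe the family and test nothing about it as a group. The mean of CD201+CD48+ cells lay between the other means for 5 of 10 members, Cd53, Cd81, Cd82, Cd151 and Tspan7. The share of all tested genes with such a mean was not counted, so nothing is read from this number. The summed levels of several marker lists stepped down in the same order as Tspan7 and Cd82. The 6 HSC markers summed to 1366 to 1388 CPM in CD201+CD48-, 811.7 to 827.9 in CD201+CD48+ and 322.1 to 357.0 in CD201- libraries, with Hoxb5 at 0 in the last, and of 5 tested 5, 4 and 5 were called higher in the 3 comparisons. The 11 neutrophil and monocyte markers summed to 153.1 to 172.7, 109.5 to 119.2 and 69.7 to 98.5 CPM, with S100a9 at 0 in all libraries and Elane and S100a8 at 0 in both CD201+ populations. Of the 5 tested, 2, 2 and 1 were called higher in the 3 comparisons and 1 was called lower in each, so the sum does not stand for every marker of the list. The 8 erythroid markers with a row summed to 197.3 to 225.4, 136.4 to 149.4 and 50.8 to 94.2 CPM, with Hba-a1 at 0 in all libraries. Only 2 of them were tested, and 2, 1 and 1 were called higher and 0 lower. The part of these lists in the levels of the members was not tested. Such bulk values cannot tell fewer cells with a transcript from less of it per cell.

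**Figure D1:**
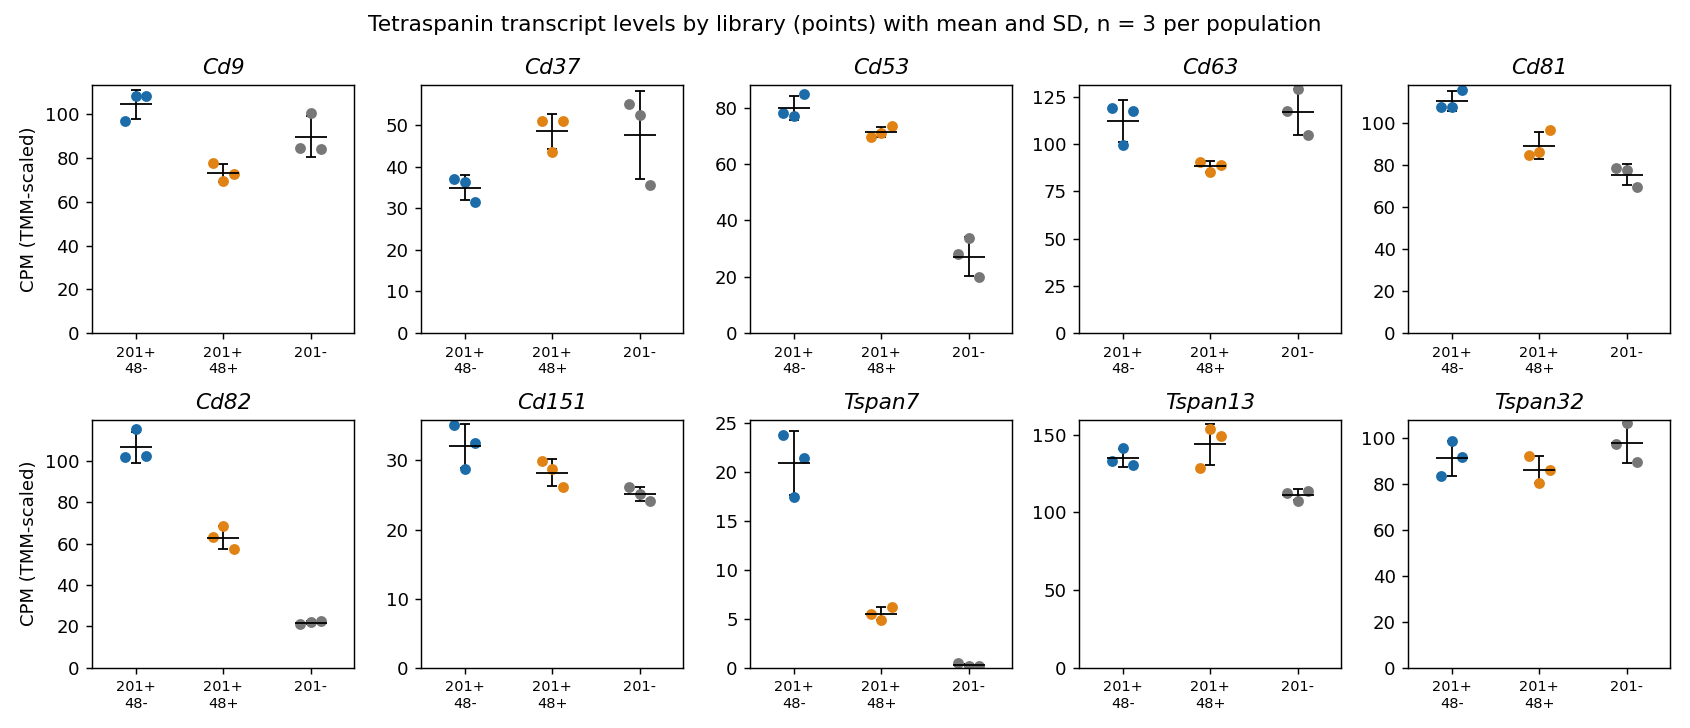
Level of each tetraspanin gene in CPM (TMM-scaled, linear axis from 0) in the 9 libraries, with points for libraries, horizontal bars for means and error bars for SD (n = 3 per population). Tspan7 and Cd82 fall in 2 steps from left to right (20.9, 5.52 and 0.292 CPM for Tspan7), Cd53 is low in CD201- libraries alone, and Cd9 and Cd63 dip in the middle population.

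**Figure D2:**
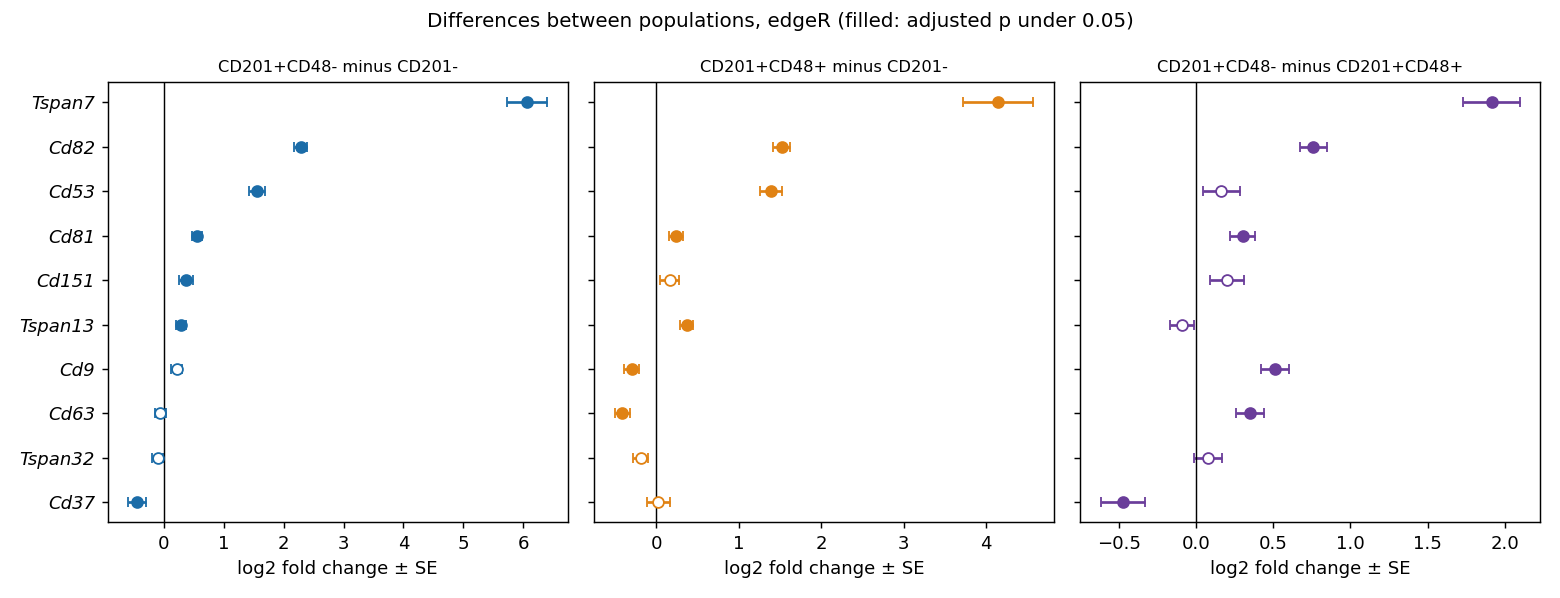
Log2 fold changes of the 10 members with their standard errors (x axis, a separate scale in each panel) in the 3 comparisons; filled points passed an adjusted p of 0.05 and open points did not. Tspan7 (6.06), Cd82 (2.28) and Cd53 (1.56) lead in the first panel, and Cd37 is the member called lower there.

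The promoters of these 3 genes are shown because they mark the members that differed most, as the 250 bases before the first start in the RefSeq table (GRCm38.p6, the assembly of mm10). The Tspan7 window is chrX:10484866-10485115 (plus strand), that of Cd82 is chr2:93462951-93463200 (minus strand) and that of Cd53 is chr3:106790150-106790399 (minus strand). They are printed 5′ to 3′ on the strand of the gene, and capitals mark matches on either strand to GGAAG (the core of ETS factor motifs), TGTGGT (RUNX) and GGGCGG (the GC box). GATAA (GATA factors) and TATAAA (the TATA box) were searched too and had no match in these 3 windows.
Tspan7: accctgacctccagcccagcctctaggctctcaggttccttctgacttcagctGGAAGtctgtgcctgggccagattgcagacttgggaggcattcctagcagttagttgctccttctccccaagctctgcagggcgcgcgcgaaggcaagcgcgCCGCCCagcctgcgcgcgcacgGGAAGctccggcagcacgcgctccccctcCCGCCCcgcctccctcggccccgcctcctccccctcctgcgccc
Cd82: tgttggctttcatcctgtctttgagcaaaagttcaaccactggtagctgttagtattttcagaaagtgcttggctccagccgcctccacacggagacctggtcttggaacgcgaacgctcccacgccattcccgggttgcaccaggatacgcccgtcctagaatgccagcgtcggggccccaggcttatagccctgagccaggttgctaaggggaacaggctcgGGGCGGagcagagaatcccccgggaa
Cd53: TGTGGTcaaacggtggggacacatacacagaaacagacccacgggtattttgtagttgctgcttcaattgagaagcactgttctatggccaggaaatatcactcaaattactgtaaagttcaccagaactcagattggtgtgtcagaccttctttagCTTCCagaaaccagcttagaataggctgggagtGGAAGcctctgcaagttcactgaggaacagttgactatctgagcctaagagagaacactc
The Tspan7 window held 69.2% G and C with 19 CpG dinucleotides, that of Cd82 58.4% with 14, and that of Cd53 45.2% with 2. Over the first windows of all 10 members, GGAAG was found in 8, against 64.1% of 32851 windows in the table, and GGGCGG in 7 (32.7% of all windows). TGTGGT was found in 2 members, Cd53 and Tspan32 (14.0% of all windows), GATAA in 1, Tspan32 (22.6%), and TATAAA in 0 (12.4%). The windows of Cd63 and Cd37 lay inside the annotated span of the gene, and that of Tspan32 lay partly inside it. Cd82 has 4 starts in the table and Cd151 has 2, and which start was in use was not measured. Such matches describe letters in a window and not sites.

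Cd82 and Cd81 come first, as the members with a described role in mouse HSC quiescence. Cd82 (chromosome 2, 93419102 to 93462950, mm10) encodes a tetraspanin also known as a suppressor of metastasis. It stood at 101.7, 115.2 and 102.5 CPM in the CD201+CD48- libraries, at 63.0, 68.4 and 57.4 CPM in the CD201+CD48+ libraries and at 21.0, 22.0 and 22.6 CPM in the CD201- libraries. No library of one population reached the range of another. The step from CD201- to CD201+CD48- cells was 4.86-fold (log2 fold change 2.28 ± 0.10, SE; edgeR adjusted p = 1.82e-10). CD201+CD48+ cells were 2.87-fold above CD201- cells (1.52 ± 0.10, adjusted p = 7.37e-08) and below CD201+CD48- cells (0.76 ± 0.09 between the CD201+ populations, adjusted p = 2.85e-05). All 3 calls held in the 17 alternatives tried.

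Cd81 (chromosome 7, 143052750 to 143067930), whose protein is widely used as a marker of exosomes, had the same order with smaller gaps. Its levels were 107.3, 107.4 and 115.6 CPM in CD201+CD48-, 84.7, 86.2 and 96.4 in CD201+CD48+, and 78.6, 77.7 and 69.5 in CD201- libraries. The 3 ranges did not overlap. CD201+CD48- cells had more Cd81 than CD201- cells (log2 fold change 0.55 ± 0.08, edgeR adjusted p = 7.32e-05), a call that held in all 17 alternatives. The difference between the CD201+ populations (0.30 ± 0.08, adjusted p = 0.0198) was lost without any one of CD201+CD48- replicates 1, 2 and 3 (adjusted p = 0.0548, 0.0508 and 0.103) or CD201+CD48+ replicates 1 and 2 (0.0843 and 0.0939). The call of CD201+CD48+ over CD201- cells (0.25 ± 0.08, adjusted p = 0.0381) was weaker still, lost in 11 of 17 alternatives. Leaving out any CD201+CD48- library ended it (adjusted p from 0.0527 to 0.0556), as did leaving out CD201- replicate 2 (0.0527) or 3 (0.0547) or CD201+CD48+ replicate 2 (0.0582) or 3 (0.187). It was also lost with the replicate block (adjusted p = 0.065).

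Among the leukocyte tetraspanins, Cd53 (chromosome 3, 106758861 to 106790149), a pan-leukocyte surface protein gene, was high in both CD201+ populations. Its 3 CD201+CD48- libraries held 78.0, 77.1 and 84.8 CPM and its CD201+CD48+ libraries 69.7, 70.9 and 73.4 CPM. The CD201- libraries held 27.9, 33.6 and 19.7 CPM, the last being replicate 3, so every CD201+ library was over the highest CD201- library. Cd53 was 2.95-fold higher in CD201+CD48- cells (log2 fold change 1.56 ± 0.13, edgeR adjusted p = 2.35e-07) and 2.64-fold higher in CD201+CD48+ cells (1.40 ± 0.13, adjusted p = 2.43e-06) than in CD201- cells. Without CD201- replicate 3 these were 1.38 ± 0.10 (adjusted p = 4.52e-18) and 1.22 ± 0.10 (adjusted p = 1.82e-15). The difference between the CD201+ populations was 0.16 ± 0.12 and did not pass (adjusted p = 0.402), although the library ranges did not overlap.

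Cd37 (chromosome 7, 45233632 to 45239340), a lymphocyte tetraspanin gene, went the other way from Cd53. It stood at 37.1, 36.4 and 31.4 CPM in CD201+CD48-, at 50.9, 43.7 and 51.0 in CD201+CD48+, and at 55.1, 52.5 and 35.5 in CD201- libraries. CD201- replicate 3 thus lay inside the CD201+CD48- range and the other CD201- libraries above it. CD201+CD48- cells had less Cd37 than CD201- cells (log2 fold change -0.45 ± 0.15, edgeR adjusted p = 0.0206) and than in CD201+CD48+ cells (-0.47 ± 0.14, adjusted p = 0.0361). Without CD201- replicate 3 they were -0.62 ± 0.11 (adjusted p = 1.9e-06) and -0.48 ± 0.10 (adjusted p = 5.54e-05). The first call was lost without CD201+CD48- replicate 3 (adjusted p = 0.0886), CD201- replicate 1 (0.0869) or CD201- replicate 2 (0.0715), and with only the 6 libraries compared (0.051). The second was lost without CD201+CD48- replicate 1, 2 or 3 (0.0783, 0.0834 and 0.155) or CD201+CD48+ replicate 1 or 3 (0.116 and 0.128), and both were lost with scaling by library size alone (0.176 and 0.0879). A limma fit lost the second call as well. CD201+CD48+ and CD201- cells differed by 0.03 ± 0.14 (adjusted p = 0.902), and that value changed sign without CD201- replicate 3 (-0.14, adjusted p = 0.289).

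Tspan32 (chromosome 7, 143004907 to 143019486), a tetraspanin gene of blood cells with a known role in platelet integrin signalling in mice, was the flattest member. It held 83.5, 98.5 and 91.7 CPM in CD201+CD48-, 92.1, 80.3 and 86.2 in CD201+CD48+, and 97.4, 106.7 and 89.6 in CD201- libraries, and the 3 ranges overlapped. Its log2 fold changes were -0.11 ± 0.09 for CD201+CD48- and -0.18 ± 0.09 for CD201+CD48+ against CD201- cells (edgeR adjusted p = 0.364 and 0.142), and 0.08 ± 0.09 between the CD201+ populations (adjusted p = 0.63). Without CD201- replicate 3 the second passed (-0.24 ± 0.08, adjusted p = 0.0164). Tspan32 and Cd81 are neighbours on chromosome 7, with 33263 bases between them that hold most of the long noncoding RNA gene R74862, which reaches over the end of Cd81 nearest Tspan32. The markers of mature lymphocytes were sparse beside these leukocyte tetraspanins. Of 7 B cell markers, Ms4a1 was at 0 in all libraries, Cd79a was at 0 in both CD201+ populations, and the sum was 9.89 to 10.9 CPM in CD201+CD48-, 6.99 to 9.35 in CD201+CD48+ and 2.19 to 6.86 in CD201- libraries. Of 6 T cell markers, Cd3e and Cd3g were at 0 in all libraries and the sum was at most 1.10 CPM in any of them. The sum of B cell markers was lowest in CD201- libraries, as Cd53 was, and its part in that result was not tested.

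Cd9 and Cd151 represent the tetraspanins of adhesion and integrin complexes. Cd9 (chromosome 6, 125460266 to 125494760) is carried by platelets, megakaryocytes and mouse HSCs. It stood at 96.8, 108.6 and 108.3 CPM in CD201+CD48-, at 77.7, 69.6 and 72.6 in CD201+CD48+, and at 84.8, 100.7 and 84.2 in CD201- libraries, so the CD201+CD48+ libraries lay below all others. Between the CD201+ populations the log2 fold change was 0.51 ± 0.09 (edgeR adjusted p = 0.0012), which held in all 17 alternatives. CD201+CD48+ cells were lower than CD201- cells (-0.29 ± 0.09, adjusted p = 0.024), but not without CD201- replicate 2 (-0.20, adjusted p = 0.12), CD201+CD48+ replicate 2 (-0.26, 0.0949) or CD201+CD48+ replicate 3 (-0.29, 0.0803). Scaling by library size alone ended that call as well (-0.16, adjusted p = 0.235), as did a fit of only the 6 libraries compared (-0.28, adjusted p = 0.0617). CD201+CD48- and CD201- cells differed by 0.22 ± 0.09 and overlapped (adjusted p = 0.0611), with a call gained with scaling by library size alone (0.38, adjusted p = 0.00494) and without CD201+CD48- replicate 1 (0.27, adjusted p = 0.0475) or CD201- replicate 2 (0.30, adjusted p = 0.0154).

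Cd151 (chromosome 7, 141467362 to 141471481), the gene of the tetraspanin that binds laminin-binding integrins, was among the less abundant members. Its CD201+CD48- libraries held 35.1, 28.8 and 32.6 CPM, its CD201+CD48+ libraries 29.9, 28.7 and 26.1, and its CD201- libraries 26.1, 25.2 and 24.1 CPM. The outer populations did not overlap, with a log2 fold change of 0.36 ± 0.12 (edgeR adjusted p = 0.0174). That call was lost without CD201+CD48- replicate 1 (0.29, adjusted p = 0.0946) and with DESeq2 (0.36, adjusted p = 0.055). The other comparisons gave 0.17 ± 0.11 (CD201+CD48+ against CD201-, adjusted p = 0.303) and 0.20 ± 0.11 (between the CD201+ populations, adjusted p = 0.264).

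Cd63 (chromosome 10, 128896231 to 128912822), an exosome marker gene whose protein is exposed on platelets, mast cells and basophils when granules are released, shared the dip of Cd9. It stood at 119.2, 99.3 and 117.8 CPM in CD201+CD48-, at 90.7, 85.0 and 88.8 in CD201+CD48+, and at 117.3, 129.1 and 105.0 in CD201- libraries. Every CD201+CD48+ library was below every other library, and the other populations overlapped. Against CD201- cells, Cd63 was lower in CD201+CD48+ cells (log2 fold change -0.41 ± 0.09, edgeR adjusted p = 0.00395; with library size scaling alone -0.28, adjusted p = 0.0569). The difference between the CD201+ populations was 0.35 ± 0.09 (adjusted p = 0.018). It was lost without CD201+CD48- replicate 1 (0.30, adjusted p = 0.105) or 3 (0.31, 0.0928) and without CD201+CD48+ replicate 2 (0.32, 0.086) or 3 (0.35, 0.0667). The outer populations differed by -0.06 ± 0.09 (adjusted p = 0.621), a value whose sign turned in 3 of 17 alternatives.

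The summed level of 13 megakaryocyte and platelet markers was lowest in the same population as Cd9 and Cd63. It was 1850 to 2001 CPM in CD201+CD48-, 502.7 to 532.9 in CD201+CD48+ and 737.7 to 904.8 in CD201- libraries, with no marker at 0 in any population. Of these 13 markers, 12 were called higher and 0 lower in CD201+CD48- against CD201+CD48+ cells (9.05% and 6.31% of all genes). In CD201+CD48+ against CD201- cells 1 was higher and 6 were lower (14.8% and 14.3% of all genes). In CD201+CD48- against CD201- cells 11 were higher and 1 lower (24.2% and 23.9% of all genes), a comparison in which neither Cd9 nor Cd63 was called. The 9 mast cell and basophil markers summed to 5.09 to 9.60, 3.44 to 4.72 and 35.9 to 44.3 CPM in the same order, with Cma1 and Tpsb2 at 0 in all libraries. The part of either marker list in the levels of Cd9 and Cd63 was not tested.

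**Figure D3:**
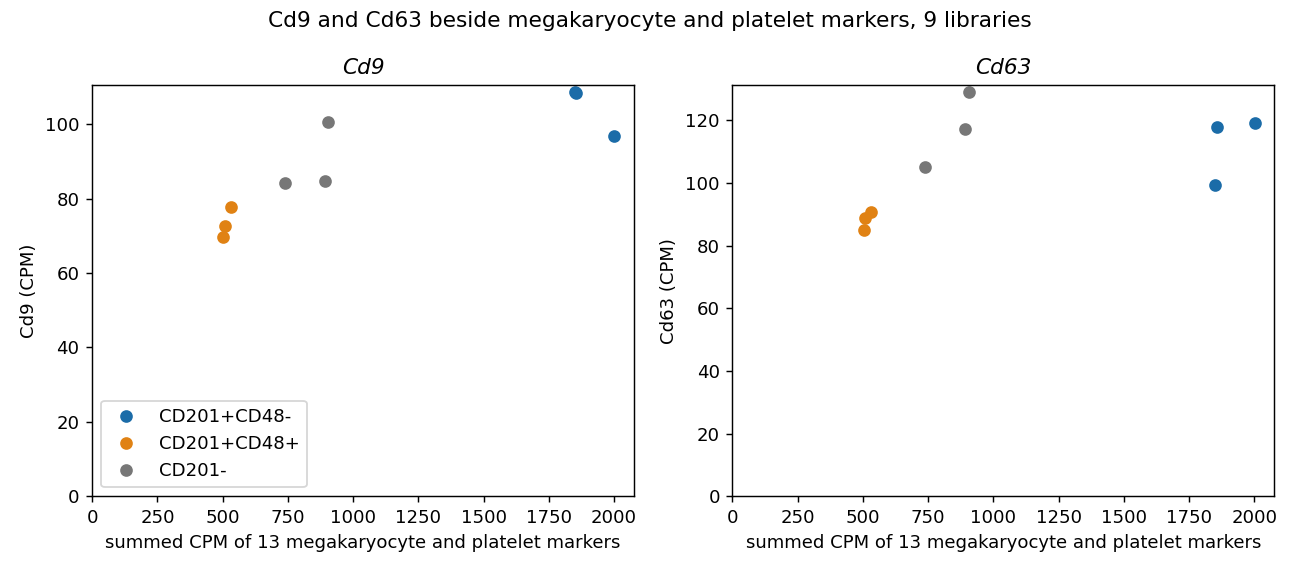
Cd9 (left) and Cd63 (right) in CPM against the summed CPM of 13 megakaryocyte and platelet markers in the same library (linear axes from 0), with 1 point per library coloured by population; 2 of the Cd9 points, CD201+CD48- replicates 2 and 3, nearly coincide. The CD201+CD48+ libraries are lowest on both axes (502.7 to 532.9 CPM of markers), while CD201+CD48- libraries exceed CD201- libraries in marker level but overlap them in both Cd9 and Cd63.

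Tspan7 (chromosome X, 10485116 to 10596604), best known in neurons where it takes part in receptor trafficking, was the least abundant member and the one with the widest range. Its CD201+CD48- libraries held 135, 69 and 97 counts (23.8, 17.4 and 21.5 CPM), and its CD201+CD48+ libraries 32, 26 and 45 counts (5.47, 4.91 and 6.19 CPM). The CD201- libraries held 2, 1 and 1 counts (0.443, 0.215 and 0.219 CPM), and no ranges overlapped. Over the group, 301 counts against 4 gave a ratio of 73.1 between CD201+CD48- and CD201- cells, with a 95% counting interval of 28.2 to 270.0 (exact binomial). For CD201+CD48+ cells, 103 counts against 4 gave 19.2 (7.27 to 71.8). Both intervals hold counting error and nothing else, as reads were not tagged by molecule. The fitted log2 fold changes were 6.06 ± 0.34 (edgeR adjusted p = 1.77e-09) and 4.15 ± 0.42 (adjusted p = 4.68e-06). Tspan7 passed the filter on low counts through its CD201+ libraries, so a difference from CD201- cells was bound to follow, and these 2 calls, counted among those of the members, support nothing beyond the counts. Between the CD201+ populations Tspan7 differed 3.77-fold (1.92 ± 0.18, adjusted p = 3.63e-06), where both levels rest on at least 26 counts per library. This last call held in the 17 alternatives. The 2 calls against CD201- cells held in them too, which adds no support for the reason given.

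Tspan13 (chromosome 12, 36014555 to 36042478), a member whose function is less well described, had the highest mean CPM of the 10 in both CD201+ populations, before correction for length. It stood at 132.9, 141.2 and 130.6 CPM in CD201+CD48-, at 128.7, 153.6 and 149.1 in CD201+CD48+, and at 112.7, 107.2 and 113.7 in CD201- libraries. Both CD201+ populations lay above CD201- cells and overlapped each other. The log2 fold change against CD201- cells was 0.37 ± 0.08 for CD201+CD48+ cells (edgeR adjusted p = 0.00299), a call that held in all 17 alternatives. For CD201+CD48- cells it was 0.28 ± 0.08 (adjusted p = 0.0103), which was lost without CD201+CD48- replicate 2 (0.24, adjusted p = 0.0507). Between the CD201+ populations it was -0.09 ± 0.08 (adjusted p = 0.488).

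To compare members with each other, CPM was divided by the length of all annotated exons of a gene in kb (GENCODE M39), which is not the annotation the authors counted on. These lengths join the exons of every isoform and can exceed the transcript in use. For Cd151 the length, 5197 bases, exceeds its whole RefSeq span of 141467362 to 141471481. Cd9 had the shortest length, 2126 bases, and Tspan13 the longest, 7342, so the order of members depends on these lengths. On this scale Cd9 was first in every population, at 49.2 ± 3.18 CPM per kb in CD201+CD48-, 34.5 ± 1.95 in CD201+CD48+ and 42.3 ± 4.41 in CD201- libraries (SD, n = 3 each), clear of the next member in each. Cd151 came next to last and Tspan7 last in all 3 populations. In CD201+CD48- cells Cd81 (29.2 ± 1.26) and Cd53 (27.9 ± 1.47) followed Cd9 with overlapping ranges, then Cd82 (24.3 ± 1.73) and Cd63 (23.4 ± 2.32), which also overlapped. Tspan13 (18.4 ± 0.76), Tspan32 (14.5 ± 1.20), Cd37 (9.36 ± 0.823), Cd151 (6.19 ± 0.612) and Tspan7 (2.92 ± 0.452) completed the order, each apart from the next.

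The order of the middle members changed between populations. In CD201+CD48+ cells Cd53 (24.9 ± 0.666 CPM per kb) and Cd81 (23.7 ± 1.69) overlapped, as did Tspan13 (19.6 ± 1.81) and Cd63 (18.4 ± 0.605). Cd82 (14.4 ± 1.26), Tspan32 (13.7 ± 0.936) and Cd37 (12.99 ± 1.13) formed a run in which neighbours overlapped, followed by Cd151 (5.44 ± 0.371) and Tspan7 (0.772 ± 0.0894). In CD201- cells Cd63 (24.5 ± 2.52) came after Cd9 and was followed by Cd81 (20.0 ± 1.33), without overlap. Tspan32 (15.6 ± 1.36), Tspan13 (15.1 ± 0.481), Cd37 (12.8 ± 2.85) and Cd53 (9.44 ± 2.43) came next, each overlapping its neighbour in this order. Cd82 fell to 4.98 ± 0.177, overlapping Cd151 (4.84 ± 0.193), and Tspan7 was at 0.0409 ± 0.0182. As a share of the summed length-scaled level of the 10 members, Cd82 was 11.8% in CD201+CD48-, 8.53% in CD201+CD48+ and 3.33% in CD201- cells, and Cd53 was 13.6%, 14.8% and 6.31%. Without length scaling the 10 members summed to 827.4 ± 10.8, 697.2 ± 8.79 and 613.4 ± 45.8 CPM, with 564.1 CPM in CD201- replicate 3 as the lowest.

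**Figure D4:**
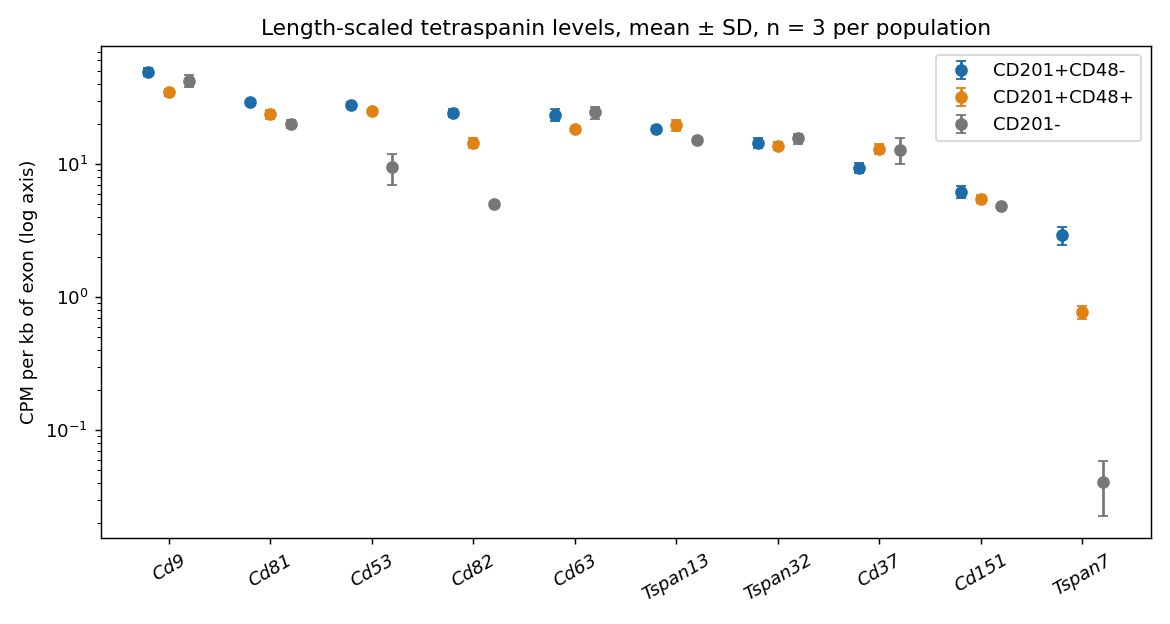
Mean level of each member in CPM per kb of exon (log axis) with SD over 3 libraries in the 3 populations, genes ordered by their level in CD201+CD48- cells. Cd9 is highest in each population, while Cd82 (24.3 to 4.98 CPM per kb), Cd53 and Tspan7 separate the populations most.

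Genes with the pattern most like the 3 members with the smallest p over the 3 groups were sought by Pearson correlation of log2 CPM over the 9 libraries, among genes with a mean of at least 10 CPM. Predicted, Riken, clone, pseudogene and mitochondrial symbols were left out, so the closest genes named are the closest among the rest. As the 9 libraries form 3 groups, these values largely restate the group means and are a description. Cd82 was closest to Tcf7l2 (r = 0.997), a Wnt pathway transcription factor gene, Parp12 (0.996) and Nfkb2 (0.996). Tcf7l2 averaged 43.7 ± 2.77, 29.7 ± 2.504 and 11.1 ± 0.623 CPM in CD201+CD48-, CD201+CD48+ and CD201- libraries. Tspan7 was closest to Bcam (r = 0.998), which encodes a laminin-binding adhesion molecule, Sgms1 (0.998) and Gbp5 (0.997). Bcam averaged 53.1 ± 4.91, 19.5 ± 1.89 and 3.72 ± 0.618 CPM. Cd53 was closest to Rassf2 (r = 0.995), Phldb2 (0.994) and Rnf122 (0.992), with Phldb2 at 25.6 ± 1.71, 22.7 ± 1.88 and 2.76 ± 1.17 CPM.

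The other members of the family were read from a list of 21 further tetraspanin genes. Of these, 10 passed the count filter. In the first comparison (CD201+CD48- against CD201- cells) 6 were higher and 1 lower (24.2% and 23.9% of all genes). For CD201+CD48+ against CD201- cells 5 were higher and 0 lower (14.8% and 14.3% of all genes). Between the CD201+ populations 1 was higher and 0 lower (9.05% and 6.31% of all genes). No gene of this list was lower in the last 2 comparisons, with 0 also at an unadjusted edgeR p under 0.05, by DESeq2 and by limma. A gene that passes the filter through the population where it is high is bound to differ, so these counts support nothing about the family. Tspan2, known from myelinating glia, behaved like Cd53, at 28.9 ± 3.62 CPM in CD201+CD48-, 27.7 ± 2.42 in CD201+CD48+ and 9.39 ± 1.01 in CD201- libraries (log2 fold changes against CD201- cells 1.63 ± 0.15 and 1.55 ± 0.15; edgeR adjusted p = 4.95e-07 and 2.47e-06). Tspan3 averaged 89.1 ± 4.23, 80.4 ± 3.90 and 58.2 ± 3.68 CPM (0.61 ± 0.08 and 0.47 ± 0.08, adjusted p = 2.71e-05 and 7.12e-04). Tspan9, a platelet tetraspanin gene, was the one called between the CD201+ populations, at 10.96 ± 0.104 against 4.18 ± 1.16 CPM (1.38 ± 0.22, adjusted p = 4.23e-04), and at 4.004 ± 0.275 CPM in CD201- libraries.

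Tspan5, Tspan14 and Tspan33 belong to the group of tetraspanins that escort the protease ADAM10 to the cell surface. Tspan33 was scarce, at 5.20 ± 1.25, 2.96 ± 0.434 and 0.941 ± 0.685 CPM, and was higher in CD201+CD48- (log2 fold change 2.42 ± 0.42, edgeR adjusted p = 2.14e-04) and CD201+CD48+ cells (1.63 ± 0.45, adjusted p = 0.0128) than in CD201- cells. With 3, 8 and 2 counts in the CD201- libraries, Tspan33 passed the count filter through its CD201+ libraries. Both calls were thus bound to follow and support nothing beyond the counts. Between the CD201+ populations Tspan33 passed without CD201- replicate 3 (0.78, adjusted p = 0.0352) but not with it (0.79, adjusted p = 0.108). Tspan5 went the other way, at 27.9 ± 1.15, 32.2 ± 3.04 and 37.7 ± 2.93 CPM (-0.43 ± 0.11 for CD201+CD48- against CD201- cells, adjusted p = 0.00506; with library size scaling alone -0.26, adjusted p = 0.0965). Tspan14 averaged 85.1 ± 7.03, 78.5 ± 4.97 and 73.0 ± 14.1 CPM and did not pass, but CD201+CD48- against CD201- cells (0.22, adjusted p = 0.138) passed with library size scaling alone (0.39, adjusted p = 0.0322) and when CD201- replicate 1 was left out (0.34, adjusted p = 0.0295). Adam10 itself, singled out after its values were seen, was in the partner list and was not called, with 332.9 ± 7.78, 326.2 ± 23.0 and 345.8 ± 40.0 CPM. Tspan6 and Tspan18 were low and higher in both CD201+ populations, by 1.05 ± 0.28 and 0.97 ± 0.27 (Tspan6, adjusted p = 0.00621 and 0.0149) and by 1.97 ± 0.50 and 1.93 ± 0.49 (Tspan18, adjusted p = 0.00437 and 0.00793). Tspan18 averaged 2.43 ± 0.896, 2.28 ± 0.209 and 0.582 ± 0.121 CPM, with 2, 3 and 3 counts in the CD201- libraries. It passed the count filter in the same way as Tspan33, so its calls support nothing beyond the counts either. The second Tspan6 call was lost without CD201+CD48+ replicate 2 (adjusted p = 0.0545) or 3 (0.0792). Tspan4, at 49.6 to 51.0 CPM in the group means, and Tspan31, at 21.0 to 26.4 CPM, did not pass in any comparison. The remaining 11 did not pass the count filter, with 0 counts in all for Upk1b, 1 each for Tspan11 and Upk1a, and at most 87 over the 9 libraries, for Rom1.

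**Figure D5:**
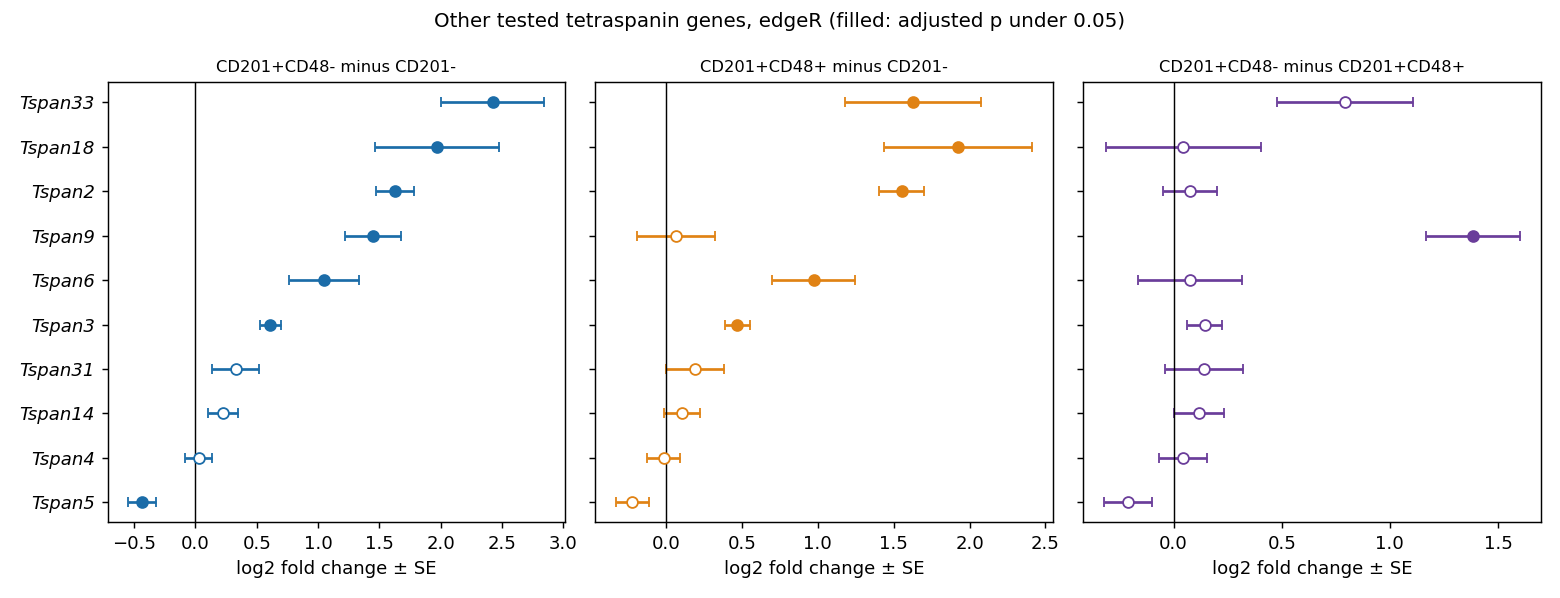
Log2 fold changes with standard errors (x axis, a separate scale in each panel) of the 10 other tetraspanin genes that were tested; filled points passed an adjusted p of 0.05 and open points did not. Tspan33 (2.42), Tspan18 (1.97) and Tspan2 (1.63) are highest in the first panel, and Tspan9 is the filled point of the last. Tspan33 and Tspan18 passed the count filter through their CD201+ libraries, so their differences from CD201- cells were bound to follow.

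A list of 21 known partners of tetraspanins and exosome sorting genes was read beside the family, and 19 were tested. In CD201+CD48- against CD201- cells 6 were higher and 2 lower, in CD201+CD48+ against CD201- cells 2 were higher and 4 lower, and between the CD201+ populations 4 were higher and 0 lower (1 lower at an unadjusted edgeR p under 0.05, and 0 by DESeq2 or limma). These are 42.1%, 31.6% and 21.1% of the tested partners, near the 48.1%, 29.1% and 15.4% of all genes. The median log2 fold changes were -0.06, 0.05 and 0.14. Itga3, which encodes the laminin-binding integrin chain that pairs with CD151, averaged 12.2 ± 1.58, 5.50 ± 1.76 and 0.949 ± 0.344 CPM in CD201+CD48-, CD201+CD48+ and CD201- libraries (log2 fold changes against CD201- cells 3.65 ± 0.34 and 2.497 ± 0.38; edgeR adjusted p = 5.62e-07 and 1.94e-04). With 6, 4 and 3 counts in the CD201- libraries, Itga3 passed the count filter through its CD201+ libraries. A difference from CD201- cells was thus bound to follow, and these 2 calls of Itga3, counted among those of the partners, support nothing beyond the counts. Icam1, an adhesion ligand gene, averaged 67.6 ± 5.59, 46.0 ± 3.23 and 23.0 ± 2.56 CPM (1.55 ± 0.11 and 1.00 ± 0.11, adjusted p = 3.29e-08 and 1.27e-05). Itga6, the other laminin-binding chain, had the dip of Cd9 and Cd63, at 333.1 ± 21.7, 257.6 ± 2.70 and 348.0 ± 1.79 CPM. Its level in CD201+CD48+ cells was below that of CD201- cells (-0.43 ± 0.07, adjusted p = 4.18e-04) and of CD201+CD48- cells (0.37 ± 0.07 between them, adjusted p = 0.00258). Itgb2, the leukocyte integrin beta chain gene, was below its CD201- level in both CD201+ populations, at 67.5 ± 4.78, 60.4 ± 2.59 and 85.8 ± 3.72 CPM (-0.34 ± 0.08 and -0.51 ± 0.08, adjusted p = 0.00338 and 3.38e-04). The first of these was lost with library size scaling alone (-0.17, adjusted p = 0.106).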

How the data were processed

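The raw table deposited by the authors holds whole-number counts per gene symbol, with no normalization. A second deposited table holds signal, which is those counts divided by one size factor per library; it entered one alternative. The genome build mm10 and DESeq2 are named in the submitters' processing notes, while the aligner, the counter, the annotation and whether strand was used were not given in the sources used here. Per the labels' protocols, more than 5000 cells per population were sorted and sequenced as paired reads of 36 nt with SMARTer cDNA. The raw table holds 3 further columns of per-sample values that match no label and were not used.

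Genes were kept with filterByExpr (minimum count 10), scaled by TMM and tested in edgeR 4.0.16 (R 4.3.3; quasi-likelihood), all 9 libraries in one fit with group as the factor. P-values were adjusted by Benjamini-Hochberg over 11619 genes, with a threshold of 0.05. Each standard error is |log2 fold change| over √F. Levels are CPM of TMM-scaled libraries; log2 CPM used a prior count of 2. Members and gene lists were chosen with earlier results of these data known. The text names all members, all tested genes of the further tetraspanin list, the sorted antigens, up to 4 called partners with the smallest p and, for 3 members, the 3 genes most like them. The fit was tested on simulated counts. Alternatives used DESeq2 1.42.0 and limma 3.58.1 (pseudocount 1). No libraries of a group agreed within counting error (chi-square per degree of freedom 1.36 to 13.0). Coordinates and promoters are RefSeq on GRCm38.p6; 10 of 10 members matched. Cd9, Cd81, Cd82 and Cd151 overlap other annotated genes there, so without stated strand their counts are less certain; the pseudogenes Cd9-ps and Cd63-ps had 0 counts. Figures were drawn with matplotlib 3.10.9.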

Additional observations from a re-analysis of the deposited data

How the results depend on the processing

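Of 30 member results (10 genes in 3 comparisons), 16 kept their direction and side of the threshold in all 17 alternatives. Of 20 calls, 11 were kept in all and none changed sign. The kept calls include those of Tspan7 against CD201- cells, which were bound to follow. Scaling by library size alone moved the median of all genes by 0.17, 0.13 and 0.03 on the log2 scale in the 3 comparisons as ordered above. It gave 1685 lower genes in the first comparison, 2701 higher and 851 lower in the second, and 0 lower members in each comparison. With only the 6 libraries compared there were 0 lower members in the first comparison, 1 in the second, and 1763 higher and 1576 lower genes in the third. The limma fit gave 0 lower members in the third.

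Leaving out one library gave 5 to 7 higher and 0 to 1 lower members in the first comparison (2433 to 3021 higher and 2321 to 3071 lower genes), 4 to 5 and 1 to 3 in the second (1265 to 2127 and 1073 to 2115 genes), and 3 to 5 and 0 to 1 in the third (663 to 1822 and 360 to 1712 genes). The highest counts of genes came without CD201- replicate 3.

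Values that did not pass changed sign as follows, on the log2 scale. With library size alone, CD201+CD48- minus CD201- became 0.11 for Cd63, 0.061 for Tspan32 and 0.11 for Itga6, and CD201+CD48+ minus CD201- became 0.11 for Tspan4. Leaving out one library, CD201+CD48- minus CD201- ranged from -0.13 to 0.015 for Cd63 and from -0.095 to 0.11 for Tspan4. CD201+CD48+ minus CD201- ranged from -0.14 to 0.14 for Cd37, -0.13 to 0.071 for Tspan4, -0.17 to 0.20 for Tspan9, -0.035 to 0.23 for Tspan14 and -0.054 to 0.33 for Tspan31. CD201+CD48- minus CD201+CD48+ ranged from -0.0015 to 0.17 for Tspan2, -0.0048 to 0.083 for Tspan4, -0.14 to 0.22 for Tspan6 and -0.19 to 0.37 for Tspan18. The cause of these changes was not tested.

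The replicate numbers are shared between groups, and the main fit did not treat them as pairs. Correlations of same-numbered deviations from the group means ran from -0.113 to 0.0447, and those of other numbers from -0.0722 to 0.1. With 3 libraries per group, they cannot show whether same-numbered libraries came from the same animal or culture. With the replicate block 2690 and 2632, 1566 and 1472, and 872 and 569 genes were higher and lower in the 3 comparisons; among members only the Cd81 call of the second was lost (0.24, adjusted p = 0.065). Alternatives for genes other than the members were chosen after seeing the data. Depth limits Tspan7 in CD201- cells most, at 1 or 2 counts per library.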
